A study of Homo sapiens with 12 samples.

Results

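Interferons raise a set of host defence genes, and a part of that set codes for proteins of the tripartite motif (TRIM) family and for components of promyelocytic leukaemia (PML) nuclear bodies. The values of 10 such genes were followed here in RNA sequencing of 624Mel cells: TRIM5, TRIM14, TRIM21, TRIM22, TRIM25, TRIM38, PML, SP100, SP110 and SP140L. They were taken by name from a table of 40173 gene IDs, and each name matched 1 ID. 624Mel is an established human melanoma line. All cells were transfected with an siRNA, either a non-targeting control (siCTRL) or an siRNA against MITF (siMITF), the transcription factor that sets the melanocytic programme, and each siRNA was used alone or with IFNγ at 5 ng/mL for 24 h, begun 24 h after transfection. That made 4 conditions with 3 libraries each, labelled as replicates. A single siRNA sequence against MITF and a single line were used, so an effect of that siRNA on other transcripts cannot be told apart from the loss of MITF. The study asked how cells with less MITF answer IFNγ.

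Most TRIM proteins are ubiquitin ligases with a RING domain, and several recognise viral components or tune the sensors that detect viral nucleic acids. PML is itself a TRIM protein and forms the shell of the nuclear bodies, where SP100 is a constant resident and SP110 and SP140L are relatives of SP100 with chromatin-reading domains. IFNγ acts through the JAK kinases on transcription factors that bind GAS elements in the DNA, and factors of the IRF family, among them IRF1 and IRF9, act at ISRE elements.

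Levels were deposited as TPM, a share of all transcripts that is scaled by transcript length, so levels can be compared between genes. Read depth cannot be recovered from TPM and is unknown. Between 11850 and 12377 gene IDs reached 2 TPM in a library. MITF was at 187, 229 and 217 TPM in the siCTRL libraries and at 36.0, 49.7 and 41.7 TPM in the siMITF libraries, a log2 fold change of −2.29, and the knockdown was also seen with IFNγ (−2.14). All 8 melanocytic markers examined reached 2 TPM on average in every condition. Their summed level ran from 7377 to 9860 TPM in the siCTRL libraries with and without IFNγ and from 2372 to 2882 TPM in the siMITF libraries, a sum carried mostly by PMEL and TYRP1. The list was not uniform, since S100B was called higher after siMITF without IFNγ (81.8 to 167 TPM, log2 fold change 1.02) and SOX10 was at −0.22. No keratinocyte, immune or endothelial marker reached a mean of 2 TPM, with CD3E and KRT1 listed at 0 in all libraries, and of 4 fibroblast markers LUM did, at mean levels of 2.57 to 6.91 TPM. In bulk RNA, a lower level can mean fewer cells with the transcript or less of it per cell, and these cannot be told apart.

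Of the 10 genes, 9 reached a mean of 2 TPM in a condition and were tested with limma among 12773 gene IDs. TRIM14 did not reach it, and its values are given without a test. TRIM22 reached it only in the IFNγ conditions and so had to be higher there. A gene was called changed with an adjusted p under 0.05 and a log2 fold change of at least 1 in size, where the log2 is of TPM + 1, which understates the change of low genes. The verbs rose and fell below mean an adjusted p under 0.05, whatever the fold.

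The genes lie on 6 chromosomes in GRCh38, and several are neighbours. SP110 (ENSG00000135899, chr2:230165186-230225729, minus strand), SP140L (ENSG00000185404, chr2:230327184-230403732, plus strand) and SP100 (ENSG00000067066, chr2:230415942-230545606, plus strand) share a cluster on chromosome 2. TRIM21 (ENSG00000132109, chr11:4384897-4393702, minus strand), TRIM22 (ENSG00000132274, chr11:5689610-5737089, plus strand) and TRIM5 (ENSG00000132256, chr11:5663195-5938619, minus strand) share chromosome 11. TRIM22 lies within the span of TRIM5 on the opposite strand, and the library kit does not mark strand. The remaining genes are PML (ENSG00000140464, chr15:73994673-74047827, plus strand), TRIM25 (ENSG00000121060, chr17:56836387-56914080, minus strand), TRIM38 (ENSG00000112343, chr6:25962802-25991231, plus strand) and TRIM14 (ENSG00000106785, chr9:98069275-98119222, minus strand). Of the 31-base stretches in their GENCODE transcripts, none in TRIM21 but 21.8% in SP140L and 20.6% in SP110 were also found in transcripts of other genes, which for SP140L were mostly of SP140 (14.3%). How the quantification divided such reads is not visible in gene values, so SP140L and SP110 carry that uncertainty.

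Because most of these genes moved together under IFNγ, their RefSeq promoters (GRCh38.p14) were searched for the elements of the pathway and of MITF. RefSeq entries matched 8 of the 10 genes, all but PML and TRIM22. In the 250 bases before each start, both strands were searched for the ISRE core GAAANNGAA, held by 6.88% of all 35116 promoters, the GAS element TTCNNNGAA (6.57%), and the E-box forms CATGTG (9.42%) and CACGTG (6.34%), which MITF can bind. A match there is a description of the letters and no evidence of binding. In the following lines the match is in capitals and each sequence runs 5′ to 3′ on the gene's strand.
TRIM5 (chr11:5685082-5685110, minus strand, ISRE core on the opposite strand): tagtttatctTTCACTTTCctgccctgag
TRIM14 (chr9:98119223-98119272, minus strand, ISRE core on the opposite strand): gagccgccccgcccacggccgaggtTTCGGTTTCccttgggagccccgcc
SP110 (chr2:230219989-230220047, minus strand, GAS element): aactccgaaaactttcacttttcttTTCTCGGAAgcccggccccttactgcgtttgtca
TRIM25 (chr17:56914068-56914123, minus strand, CACGTG): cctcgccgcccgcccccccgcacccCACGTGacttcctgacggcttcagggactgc
SP100 (chr2:230416522-230416577, plus strand, CACGTG): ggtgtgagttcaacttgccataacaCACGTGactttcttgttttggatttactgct
TRIM38 (chr6:25962579-25962634, plus strand, CATGTG on the opposite strand): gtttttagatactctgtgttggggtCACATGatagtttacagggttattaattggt
Starts differ between annotations. All 29 bases of the TRIM5 window, 26 bases of the SP110 window and 13 bases of the TRIM25 window lie in exons of these genes in GENCODE. The SP110 and SP100 matches were each in 1 of 2 promoters that RefSeq gives the gene. The promoters of TRIM21 and SP140L held none of these letters.

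IFNγ raised most of the 10 genes in siCTRL cells. In the plot of TPM by library, the siCTRL + IFNγ libraries lay above all siCTRL libraries for every gene but TRIM25, a separation that 11.7% of all tested gene IDs also showed. Of the 9 tested genes, 7 were called higher (TRIM5, TRIM21, TRIM22, PML, SP100, SP110 and SP140L), against 2.42% of all tested gene IDs. TRIM38 also rose, below the limit on the fold. All 9 fold changes were positive. Their median log2 fold change was 1.84, and that of all tested gene IDs was −0.07.

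**Figure D1:**
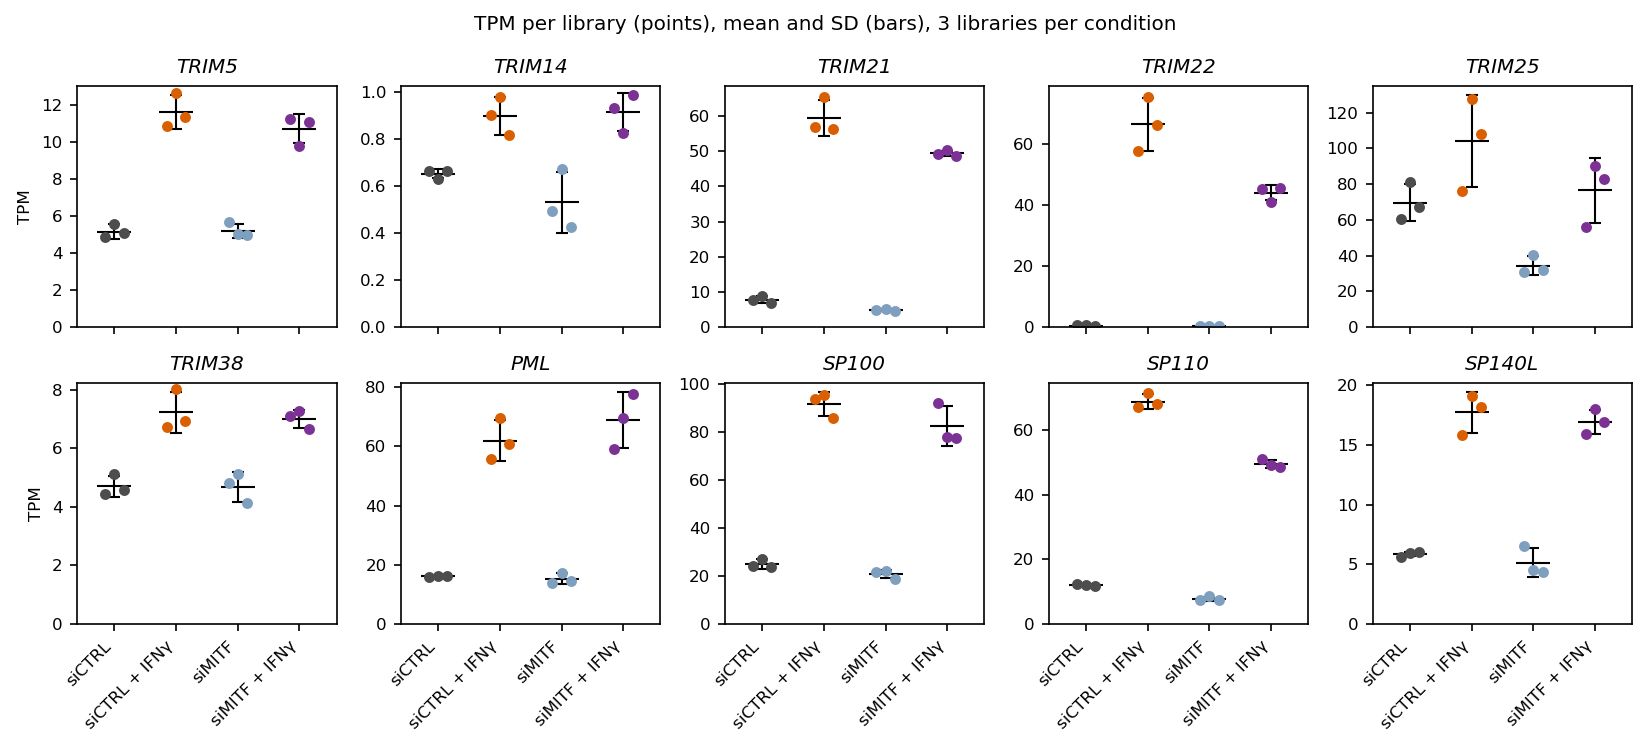
TPM of the 10 genes in each library (points), with the mean and SD of 3 libraries per condition (bars), on a separate linear axis from 0 for each gene. Every gene but TRIM25 is higher in each siCTRL + IFNγ library than in any siCTRL library, and TRIM22 goes from under 1 TPM to between 41.2 and 75.4 TPM.

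Among the TRIM genes, TRIM22, whose product is an interferon-induced antiviral ligase, changed most. Its level was 0.469, 0.629 and 0.159 TPM in the siCTRL libraries and 57.8, 75.4 and 66.5 TPM with IFNγ. It was thus near 0 in all libraries without IFNγ, and the log2 fold change of 5.58 ± 0.14 (SE, adjusted p = 1.1e-11, limma) depends on the pseudocount, rising to 7.12 with a pseudocount of 0.1. TRIM21, a cytosolic antibody receptor and the Ro52 autoantigen, was at 7.54, 8.88 and 6.94 TPM and at 56.8, 65.5 and 56.3 TPM with IFNγ. The 2 conditions were far apart, with a log2 fold change of 2.79 ± 0.10 (adjusted p = 3.1e-10). TRIM5, a restriction factor that recognises retroviral capsids, went from 4.84, 5.58 and 5.05 TPM to 10.9, 12.6 and 11.3 TPM. Its log2 fold change of 1.03 ± 0.10 (adjusted p = 8.5e-06) stood at the limit, and it fell short of the limit without siCTRL replicate 1 (0.997), without siCTRL + IFNγ replicate 2 (0.98) and with quantile normalization (0.99).

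The other TRIM genes moved less. TRIM38, a ligase that restrains inflammatory signalling, was at 4.44, 5.12 and 4.57 TPM and at 6.73, 8.04 and 6.95 TPM with IFNγ. The libraries did not overlap, and its log2 fold change was 0.53 ± 0.10 (adjusted p = 0.0044, limma). TRIM25, the ligase that modifies the RNA sensor RIG-I, was the most abundant of the 10 genes without IFNγ. Its level was 60.6, 81.1 and 67.0 TPM in siCTRL libraries and 76.4, 128 and 108 TPM with IFNγ. These libraries overlapped, and the log2 fold change of 0.55 ± 0.21 had an adjusted p of 0.105, or 9.1e-04 with a replicate block, a term in the fit for the replicate number. The adjusted p also passed 0.05 with quantile normalization (0.0114), median centring (0.0106) and TPM rescaled without mitochondrial genes (0.0448), and without siCTRL + IFNγ replicate 1 (0.0264) or siMITF + IFNγ replicate 1 (0.0489). TRIM14, which lacks the RING domain and acts as an adaptor of antiviral sensing, stayed low, at 0.664, 0.63 and 0.662 TPM and at 0.902, 0.975 and 0.816 TPM with IFNγ.

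The nuclear body genes rose in a narrower range. PML was at 15.97, 16.12 and 16.21 TPM in siCTRL libraries and at 55.6, 69.5 and 60.7 TPM with IFNγ, a log2 fold change of 1.87 ± 0.12 (adjusted p = 1.2e-07, limma). SP100 went from 24.0, 27.2 and 23.7 TPM to 93.8, 95.5 and 86.2 TPM, a log2 fold change of 1.84 ± 0.10 (adjusted p = 1.7e-08). The log2 fold changes of these body components thus differed by less than the SE of either. SP110, a nuclear hormone receptor coactivator of the SP100 family, changed more, from 12.3, 11.9 and 11.8 TPM to 67.2, 71.5 and 68.1 TPM. Its log2 fold change was 2.43 ± 0.07 (adjusted p = 1.1e-10). SP140L was the lowest of the group, at 5.64, 5.92 and 6.03 TPM in siCTRL and 15.8, 19.1 and 18.2 TPM in siCTRL + IFNγ libraries, a log2 fold change of 1.44 ± 0.13 (adjusted p = 3.8e-06).

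In siMITF cells the same 10 genes were higher in every library with IFNγ than in any without it, as were 12.1% of all tested gene IDs. Of the 9 tested, 7 were called higher, against 2.72% of all tested gene IDs, and all 9 rose. The called genes were TRIM21, TRIM22, TRIM25, PML, SP100, SP110 and SP140L, so that TRIM25 was called here and TRIM5 was not. The median log2 fold change was 1.94 for the 9 genes and −0.10 for all tested gene IDs.

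**Figure D2:**
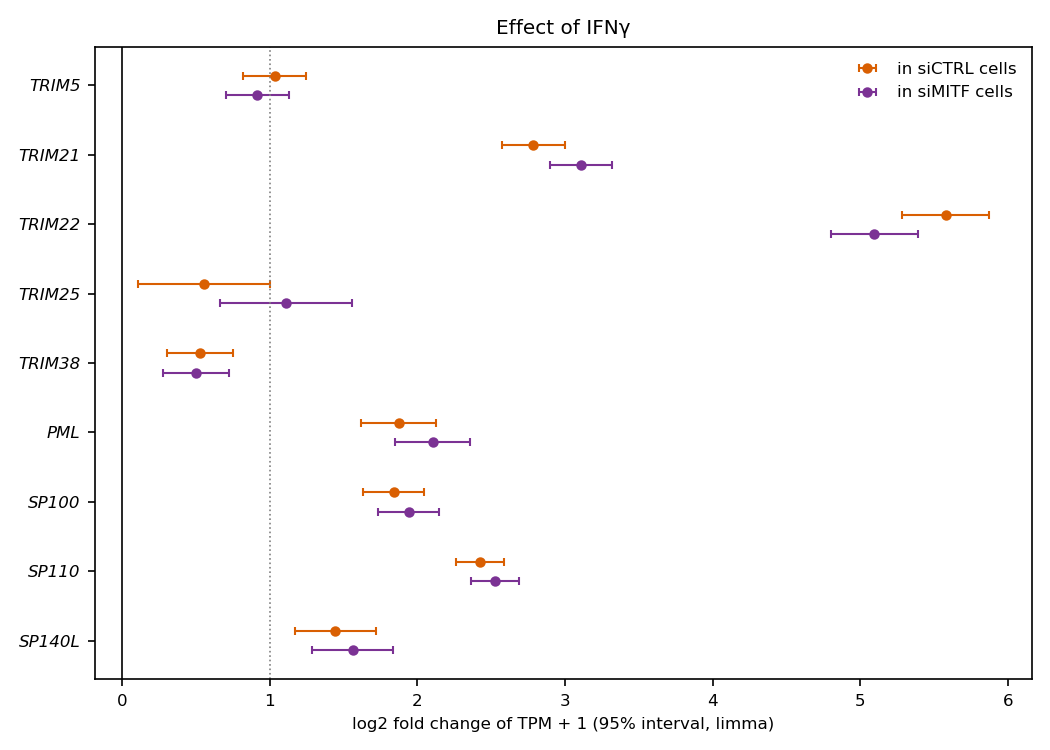
Log2 fold change of TPM + 1 by IFNγ for the 9 tested genes in siCTRL cells (orange) and in siMITF cells (purple), with 95% intervals from limma, where the dotted line marks the limit of 1. TRIM22 stands at 5.58 and 5.09, TRIM38 at 0.53 and 0.50, and the intervals of TRIM25, at 0.55 and 1.11, are the widest.

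TRIM25 was at 30.9, 40.2 and 31.9 TPM in siMITF libraries and at 56.0, 90.3 and 83.1 TPM with IFNγ. Its libraries were apart here, and the log2 fold change of 1.11 (adjusted p = 0.0022, limma) fell to 0.98, under the limit, without siMITF + IFNγ replicate 2. TRIM5 was at 5.65, 5.00 and 4.96 TPM and at 11.2, 9.80 and 11.1 TPM with IFNγ. It rose, and its log2 fold change of 0.92 (adjusted p = 2.4e-05) was under the limit of 1 that it had just passed in siCTRL cells. With a pseudocount of 0.1 it passed the limit here (1.03) and in the combination against siCTRL (1.04). TRIM38 rose from 4.80, 5.12 and 4.13 TPM to 7.11, 7.27 and 6.68 TPM, a log2 fold change of 0.50 (adjusted p = 0.0044).

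TRIM22 went from 0.429, 0.302 and 0.235 TPM to 45.3, 41.2 and 45.7 TPM in siMITF cells, a log2 fold change of 5.09 (adjusted p = 1.7e-11, limma). TRIM21 went from 4.82, 5.19 and 4.56 TPM to 49.4, 50.2 and 48.7 TPM, a log2 fold change of 3.11 (adjusted p = 8.7e-11). TRIM14 was at 0.493, 0.672 and 0.423 TPM and at 0.929, 0.825 and 0.985 TPM with IFNγ. Again TRIM22 was near 0 without the cytokine, and TRIM14 was under 1 TPM in all 12 libraries.

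PML went from 13.8, 17.3 and 14.6 TPM to 59.0, 69.7 and 77.8 TPM in siMITF cells, a log2 fold change of 2.11 (adjusted p = 2.9e-08, limma). SP100 went from 21.5, 21.9 and 18.7 TPM to 92.3, 77.8 and 77.6 TPM, a log2 fold change of 1.94 (adjusted p = 8.5e-09). As in siCTRL cells, no library of either body component with IFNγ came near those without it. SP110 went from 7.42, 8.52 and 7.46 TPM to 51.0, 49.2 and 48.7 TPM, a log2 fold change of 2.53 (adjusted p = 5.1e-11). SP140L went from 6.5, 4.54 and 4.38 TPM to 15.96, 18 and 16.9 TPM, a log2 fold change of 1.56 (adjusted p = 1.5e-06).

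The knockdown of MITF without IFNγ lowered 3 of the 9 tested genes. TRIM25, TRIM21 and SP110 fell, against 13.8% of all tested gene IDs that fell by the adjusted p alone. With the limit on the fold none was called, against 2.88% of all tested gene IDs called lower. TRIM25 was at −0.997 ± 0.205 on the log2 scale (adjusted p = 0.0023, limma), its siMITF mean being 34.3 ± 5.14 TPM and its siCTRL mean 69.6 ± 10.5 TPM (SD, n = 3 libraries each). It stood within rounding of the limit of 1 and passed it without siCTRL replicate 1, without siCTRL replicate 3, without siMITF replicate 2 and under 5 of the other settings tried. TRIM21 fell by 0.58 on the log2 scale (adjusted p = 5.3e-04) and SP110 by 0.57 (adjusted p = 7.9e-05), and no siMITF library of either reached the lowest siCTRL library, as for 22% of all tested gene IDs.

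The remaining genes did not pass the test for siMITF without IFNγ. For SP100 the libraries did not overlap, with a log2 fold change of −0.26 and an adjusted p of 0.0534, or 0.0128 with the replicate block. The values were −0.18 for SP140L (adjusted p = 0.309), −0.09 for TRIM22 (0.655), −0.08 for PML (0.624), −0.01 for TRIM38 (0.963) and 0.01 for TRIM5 (0.947). Over the settings tried, SP140L ran from −0.33 to −0.09 and its adjusted p (limma) from 0.0413 to 0.672. The mean of TRIM14 was 0.529 ± 0.128 TPM in siMITF and 0.652 ± 0.0188 TPM in siCTRL libraries, and the libraries overlapped. The median over the 9 genes was −0.18, and that over all tested gene IDs was 0.06.

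**Figure D3:**
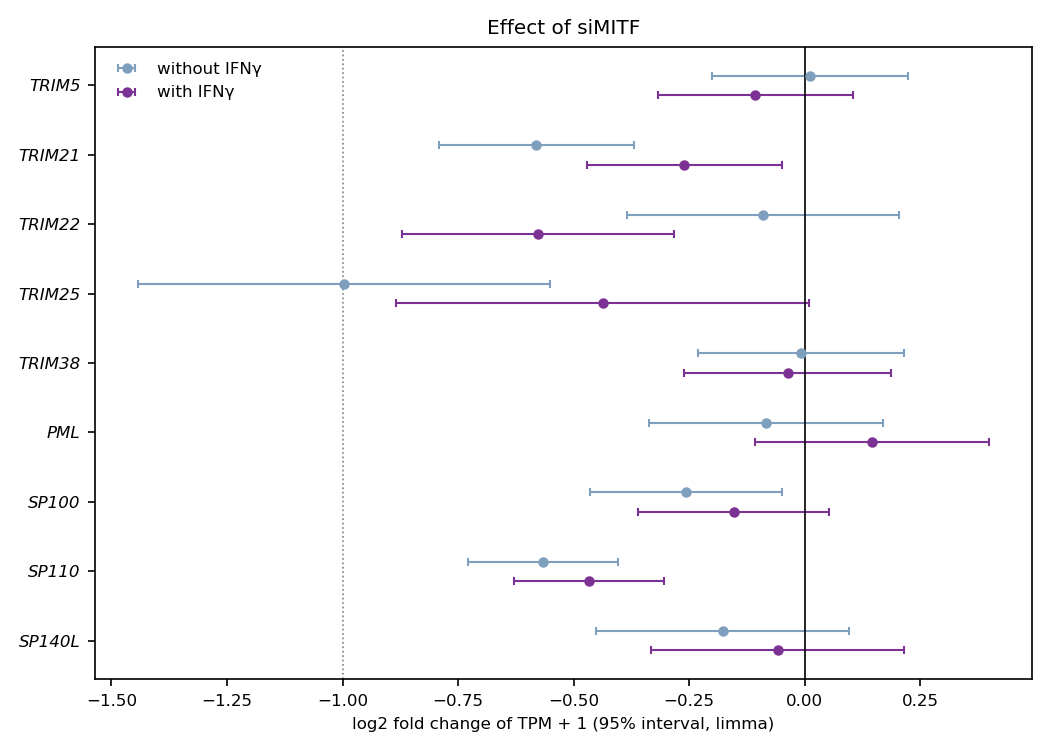
Log2 fold change of TPM + 1 by siMITF for the 9 tested genes without IFNγ (blue) and with IFNγ (purple), with 95% intervals from limma, where the dotted line marks the limit of −1. SP110 lies below 0 in both, at −0.57 and −0.47, while TRIM22 is at −0.09 without and −0.58 with IFNγ and PML at −0.08 and 0.15.

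In IFNγ-treated cells, 2 of the 9 genes were lower after siMITF by the adjusted p, against 14.7% of all tested gene IDs. These were SP110, which fell by 0.47 on the log2 scale (adjusted p = 3.9e-04, limma), and TRIM22, which fell by 0.58 (adjusted p = 0.0056). None of the 9 was called with the limit on the fold, against 2.57% of all tested gene IDs called lower. Over the settings tried, the adjusted p (limma) reached 0.0074 for SP110 and 0.165 for TRIM22. The fall of TRIM22 did not pass with a pseudocount of 0.1. The mean of TRIM22 was 66.5 ± 8.81 TPM in siCTRL + IFNγ and 44.1 ± 2.49 TPM in siMITF + IFNγ libraries (SD, n = 3), a ratio of 0.662. SP110 was at 68.9 ± 2.28 and 49.6 ± 1.22 TPM, a ratio of 0.720. For both genes all siMITF + IFNγ libraries lay below all siCTRL + IFNγ libraries, as for 17% of all tested gene IDs. So did those of TRIM21, whose log2 fold change of −0.26 had an adjusted p of 0.0574, or 0.0095 with the replicate block. TRIM25 was at −0.44 with overlapping libraries (adjusted p = 0.124, or 0.0019 with the replicate block). Its adjusted p also passed 0.05 with quantile normalization (0.0318), with median centring (0.0187) and without siCTRL + IFNγ replicate 1 (0.0232), and its value moved to −0.23 without siMITF + IFNγ replicate 1 and −0.28 without siCTRL + IFNγ replicate 2. For PML (0.15), SP100 (−0.15), TRIM5 (−0.11), SP140L (−0.06) and TRIM38 (−0.04) the adjusted p values ran from 0.245 to 0.819. The median over the 9 genes was −0.15, and that over all tested gene IDs was 0.03.

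Against siCTRL, cells with both siMITF and IFNγ had 6 of the 9 genes called higher (TRIM21, TRIM22, PML, SP100, SP110 and SP140L), against 5.61% of all tested gene IDs. The log2 fold changes were 5.00 for TRIM22, 2.53 for TRIM21, 2.02 for PML, 1.96 for SP110, 1.69 for SP100 and 1.39 for SP140L. TRIM5 (0.93, adjusted p = 7.7e-06, limma) and TRIM38 (0.49, adjusted p = 0.0020) rose without reaching the limit. TRIM25 did not pass the test (0.12, adjusted p = 0.678), and its libraries in the combination overlapped those of siCTRL. All comparisons against siCTRL share the siCTRL libraries.

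Whether the response to IFNγ differed between siMITF and siCTRL cells was tested as an interaction, the difference of the log2 fold changes by IFNγ. None of the 9 genes passed an adjusted p of 0.05, against 0.947% of all tested gene IDs, and 2 had an unadjusted p under 0.05. These were TRIM22, with a smaller log2 response in siMITF cells (−0.49, 95% interval −0.90 to −0.07, unadjusted p = 0.0255, adjusted p = 0.50, limma), and TRIM21, with a larger one (0.32, 0.02 to 0.62, unadjusted p = 0.0378, adjusted p = 0.598). The difference of TRIM25 was 0.56 (−0.07 to 1.19, adjusted p = 0.745), and with the replicate block its adjusted p was 0.0464. With 1 library left out it ran from 0.35, without siCTRL + IFNγ replicate 1, to 0.77, without siMITF + IFNγ replicate 1. The 3 TRIM25 libraries of a condition differed widely, and replicate 2 was the highest in each condition, which the block takes out.

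**Figure D4:**
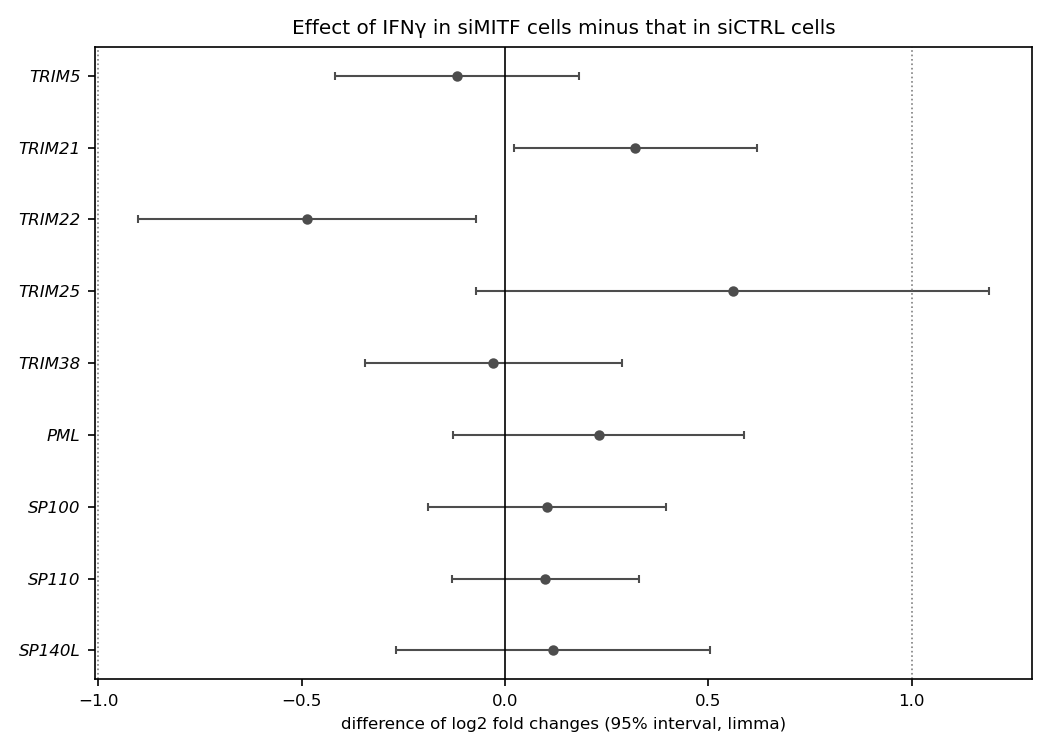
Difference between the log2 fold changes by IFNγ (siMITF minus siCTRL cells) for the 9 tested genes, with unadjusted 95% intervals from limma and dotted lines at −1 and 1. The intervals of TRIM22 (−0.90 to −0.07) and TRIM21 (0.02 to 0.62) leave out 0 before adjustment, and that of TRIM25 reaches past 1.

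For the other genes the intervals bound how different the responses could be. The difference was 0.23 for PML (95% interval −0.13 to 0.59), 0.10 for SP100 (−0.19 to 0.40), 0.10 for SP110 (−0.13 to 0.33) and 0.12 for SP140L (−0.27 to 0.51). It was −0.12 for TRIM5 (−0.42 to 0.18) and −0.03 for TRIM38 (−0.34 to 0.29). A log2 difference of 1 in either direction thus lay outside these unadjusted intervals, as it did for TRIM21 and TRIM22. Because TRIM22 was near 0 TPM without IFNγ, its difference and interval depend on the pseudocount of 1. Over the settings tried, the TRIM22 difference ran from −0.59 to −0.35.

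On the scale of TPM itself, the mean in the combination was set beside the sum of the single effects (siCTRL + IFNγ plus siMITF minus siCTRL), as a description without a test. TRIM22 was the farthest below its sum, at 44.1 against 66.4 TPM, a ratio of 0.663. SP110 followed, at 49.6 against 64.7 TPM (0.766), and TRIM21 at 49.4 against 56.6 TPM (0.873). TRIM21 therefore lay under the sum in TPM while its log2 response was larger in siMITF cells, since its level before IFNγ was lower there. The ratios of TRIM5 (0.919), SP100 (0.943), TRIM38 (0.973) and SP140L (0.997) were nearer to 1. TRIM25 (1.11), PML (1.13) and TRIM14 (1.18) lay above it.

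The make-up of the group changed with IFNγ. The summed level of the 10 genes was 147 ± 14.1 TPM in siCTRL, 490 ± 52.4 TPM in siCTRL + IFNγ, 98.8 ± 8.99 TPM in siMITF and 407 ± 15.9 TPM in siMITF + IFNγ libraries (SD, n = 3). Without IFNγ, TRIM25 made up 47.3% of the sum in siCTRL and 34.8% in siMITF cells. With IFNγ its share was 21.2% and 18.8%. SP100 held 17.0% in siCTRL cells and 20.3% in siMITF + IFNγ cells. TRIM25 was above SP100 in 2 of the 3 siMITF + IFNγ libraries and below it in replicate 1. TRIM22 went from 0.285% of the sum in siCTRL cells to 13.6% with IFNγ, TRIM21 from 5.29% to 12.1% and SP110 from 8.15% to 14.1%.

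**Figure D5:**
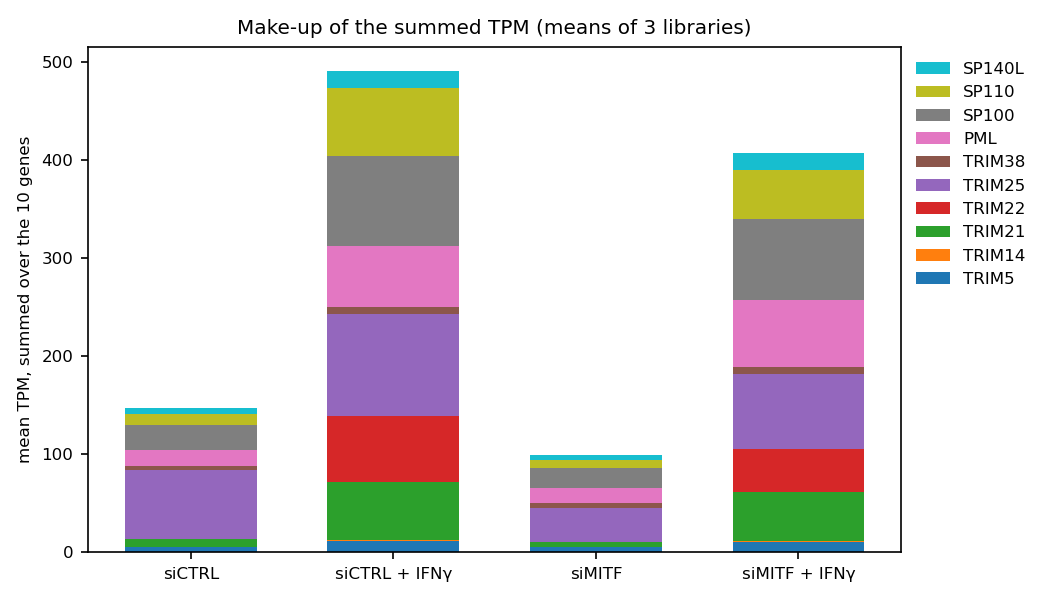
Mean TPM of the 10 genes stacked for each condition (means of 3 libraries, linear axis from 0). The stacks reach 147, 490, 98.8 and 407 TPM, and TRIM25 is the tallest band in both conditions without IFNγ.

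The share of TPM on mitochondrial genes differed between the libraries of a condition and was lowest in replicate 2 of each, at 7.42% (siCTRL), 8.45% (siCTRL + IFNγ), 10.1% (siMITF) and 12.7% (siMITF + IFNγ), where the other libraries ran from 12.8% to 16.9%. Replicate 2 was also the highest library of TRIM25, TRIM21 and TRIM38 in 4 of 4 conditions. The part of the mitochondrial share in these values was not tested. With TPM rescaled to exclude mitochondrial genes, TRIM25 passed the limit on the fold for siMITF without IFNγ.

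The genes also shared their profiles with other genes over the 12 libraries, given here as Pearson r of log2(TPM + 1), which the contrast between libraries with and without IFNγ dominates. TRIM22 was closest to IFIT3 (0.998), TRIM21 to DTX3L (0.997) and IRF9 (0.997), SP100 to IFI44 (0.998), SP110 to IFI6 (0.997), PML to WARS1 (0.997), TRIM5 to IFIT2 (0.995) and SP140L to C1S (0.991). Most of these genes are known interferon targets. TRIM38 was closest to TBX3 (0.990). TRIM25 was closest to EPHA5 (0.987), PRRG1 (0.985) and CHPF2 (0.970). Within the group, SP100 and TRIM21 were the most alike (0.996) and TRIM25 and TRIM5 the least (0.689).

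The other TRIM genes are given by their counts. Of 85 other TRIM genes in the table, 34 were tested. In siCTRL cells 1 was called higher, TRIM34, a relative of TRIM5 in the same chromosomal cluster, from a mean of 1.17 to 4.08 TPM (log2 fold change 1.23). In siMITF cells TRIM34 (0.852 to 4.14 TPM, 1.47) and TRIM69 (2.99 to 7.0 TPM, 1.01) were called higher. These counts read against the 2.42% and 2.72% of all tested gene IDs called higher, and TRIM34, like TRIM22, reached 2 TPM only with IFNγ and so had to be higher there. No other TRIM gene was called lower by IFNγ. TRIM69 rose in siCTRL cells too, from 2.55 to 5.78 TPM, below the limit on the fold (0.91, adjusted p = 0.0070, limma). Against siCTRL, the combination had TRIM48, TRIM69 (1.17) and TRIM34 (1.25) higher and TRIM63 and TRIM32 lower, TRIM32 from 27.4 to 12.8 TPM (−1.05). Of all 12773 tested gene IDs, 717 were called higher in that comparison and 400 lower. The median log2 fold change of the 34 genes by IFNγ was −0.06 in siCTRL and −0.09 in siMITF cells. TRIM28, a chromatin corepressor, was the most abundant, at 581, 487, 604 and 482 TPM in siCTRL, siCTRL + IFNγ, siMITF and siMITF + IFNγ cells. TRIM2 (37.3, 39.3, 55.7 and 49.6 TPM) and TRIM48 followed.

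MITF knockdown moved TRIM63 and TRIM48, which were outside the 10 genes. TRIM63, a muscle ligase known as MuRF1, went from 37.6 to 1.03 TPM without IFNγ (log2 fold change −4.25) and from 66.8 to 1.18 TPM with it (−4.98). TRIM48 went from 14.7 to 68.8 TPM without IFNγ (2.16) and rose with it as well (2.17). These were the only 2 of the 34 tested TRIM genes called for siMITF, in either setting. Of all 12773 tested gene IDs, 779 were called for siMITF without IFNγ and 726 with it, which is a similar share.

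Of 28 other genes linked to PML bodies, all were tested, and 1 was called higher by IFNγ in each siRNA background, which is near the 2.42% and 2.72% over all tested gene IDs. SP140, a blood-cell relative of SP100 that lies beside SP110, was called higher with IFNγ in siCTRL cells, from 0.722 to 2.70 TPM (log2 fold change 1.11). It reached 2 TPM in that condition alone. ISG20, an interferon-induced exonuclease, was called higher with IFNγ in siMITF cells, from 18.04 to 50.3 TPM (1.43), and was called lower after siMITF, from 99.2 to 18.04 TPM without IFNγ (−2.40) and from 156 to 50.3 TPM with it (−1.62). Its interaction passed the test (0.78, adjusted p = 0.0079, limma). Below the limit on the fold, SP140 also rose with IFNγ in siMITF cells (0.89, adjusted p = 0.0051). ISG20 likewise rose with IFNγ in siCTRL cells (0.65, adjusted p = 2.2e-04, limma). None of the 28 was called in the combination against siCTRL, where 5.61% of all tested gene IDs were called higher. The modifiers SUMO2 (296, 265, 343 and 296 TPM in the same order of conditions) and SUMO3 (97.1, 88.5, 111 and 91.1 TPM) were among the most abundant. The median log2 fold change of these 28 genes by IFNγ was −0.11 in siCTRL and −0.15 in siMITF cells.

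Among 28 partners and substrates of the TRIM proteins, 26 were tested. In siCTRL cells 3 were called higher with IFNγ, against 2.42% of all tested gene IDs. RIGI, the RNA sensor that TRIM25 modifies, went from 1.59 to 20.0 TPM (log2 fold change 3.01), the related sensor IFIH1 from 1.95 to 15.2 TPM (2.43), and the DNA-sensing adaptor STING1 from 4.38 to 11.9 TPM (1.25). In siMITF cells RIGI (1.70 to 15.9 TPM, 2.65) and IFIH1 (0.950 to 18.6 TPM, 3.22) were called, against 2.72% of all tested gene IDs called higher. STING1 rose there too, from 7.38 to 13.96 TPM, below the limit on the fold (0.83, adjusted p = 1.9e-04, limma). RIGI and IFIH1 reached 2 TPM only with IFNγ and so were tested through the conditions in which they were high. RIGI, IFIH1 and STING1 were also the 3 called in the combination, against 5.61% of all tested gene IDs called higher. None of the 26 was called for siMITF, and none passed the interaction test, against 0.947% of all tested gene IDs. The mean of the sensor CGAS ran from 0.0175 to 0.0422 TPM over the conditions. The most abundant were the capsid-binding cyclophilin PPIA (4747, 4380, 5064 and 4669 TPM), and the ubiquitin-conjugating enzymes UBE2D3 (317, 297, 328 and 308 TPM) and UBE2N (231, 203, 254 and 229 TPM).

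The transcription factors IRF1, STAT2 and IRF9 of the IFNγ pathway were called higher by IFNγ in both siRNA backgrounds and in the combination. Of all tested gene IDs, 2.42% (siCTRL), 2.72% (siMITF) and 5.61% (combination) were called higher. IRF1 went from 2.49 to 88.0 TPM in siCTRL cells (log2 fold change 4.66) and from 3.08 to 155 TPM in siMITF cells (5.26). STAT2 went from 17.5 to 103 TPM (2.49) and from 21.8 to 127 TPM (2.49). IRF9, whose profile was among the nearest to that of TRIM21, went from 7.93 to 41.2 TPM (2.24) and from 4.51 to 38.9 TPM (2.86). IRF9 passed the interaction test (0.61, adjusted p = 0.0448, limma) and IRF1 did not (0.59, adjusted p = 0.21). IRF9 fell after siMITF without IFNγ (−0.69), as did TRIM25, TRIM21 and SP110, against 13.8% of all tested gene IDs that fell. With IFNγ, IRF9 did not pass the test for siMITF (−0.08, adjusted p = 0.549, limma). A link between IRF9 and the 10 genes was not tested. With IFNγ present, IRF1 was higher in siMITF than in siCTRL cells (0.82, adjusted p = 2.3e-04), while none of the 9 tested genes rose there.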

How the data were processed

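RNA of 624Mel cells in 4 conditions with 3 libraries each was analysed. Per the study's methods, the authors made libraries from total RNA and trimmed reads with Trimmomatic (0.39 in the submitters' processing notes). They quantified transcripts with kallisto on GRCh38. The methods name the library kit but do not say whether it marks strand, and it is taken here to be unstranded. TPM per gene ID and library were deposited by the authors. The annotation release and the tool that summed transcripts to genes are not given in the sources used here. The authors' tests used DESeq2 (1.26.0) on counts, which are not used here.

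The 10 genes and the gene lists were chosen with earlier results of these data known. limma 3.58.1 (R 4.3.3) was fitted to log2(TPM + 1). The 12773 gene IDs whose mean reached 2 TPM in some condition entered, all 12 libraries shared the fit (1 coefficient for each condition, intensity-trend moderation), and two-sided p-values were adjusted by Benjamini-Hochberg over those IDs. Calls needed an adjusted p under 0.05, a log2 fold change of at least 1 in size and 2 TPM in a compared condition, and for the interaction the adjusted p alone. The fit was first tested on simulated data in which libraries varied independently, so that test did not cover the pairing by replicate number. Errors are SD over libraries or SE from limma. Since the labels only call the libraries replicates, while the study's methods speak of biological replicates, p-values measure the spread between these libraries. With unknown depth no counting interval or detection floor is given, and 0 pairs of libraries were identical. Python 3.11.15, pandas 2.3.3, numpy 2.4.6 and matplotlib 3.10.9 made tables and figures.

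Replicate numbers pair the samples. After removal of condition means, all 18 same-number pairs (libraries of different conditions) correlated across genes at over 0.1 (0.102 to 0.626, median 0.280), against a median of −0.196 for 36 pairs with different numbers. Deviations from a condition mean sum to 0, so positive same-number values bring negative ones with them. The second median is therefore no separate support. The pairing comes from the numbers in the labels, and a replicate block was fitted as an alternative.

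Named were the 10 genes, MITF, the genes of each list that were called or among its 3 most abundant, and genes nearest in profile by Pearson r. Some genes of the lists are not reported here. CGAS and the marker genes PMEL, TYRP1, S100B, SOX10, CD3E, KRT1 and LUM were named after their values were seen. Alternatives were pseudocounts of 0.1 and 0.5, other or no filters on low values, quantile normalization, median centring, moderation without trend, only the compared conditions, TPM summed by symbol, fold changes of mean TPM, an adjusted p under 0.01, no fold limit, an interaction limit of 1, the replicate block and each library left out. TPM rescaled without mitochondrial genes, and counts past the adjusted p alone, were added after seeing the data.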

Additional observations from a re-analysis of the deposited data

How the results depend on the processing

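Over the alternatives, 1278 values were recomputed for 54 pairs of a tested gene and a comparison, and 1248 kept direction and call. Outside the interaction a call includes the limit on the fold, so a value whose adjusted p alone crossed its threshold still counts as kept. Such crossings occurred for TRIM25 by IFNγ in siCTRL cells and for TRIM25, TRIM22 and TRIM21 by siMITF with IFNγ. They also occurred for SP140L and SP100 by siMITF without IFNγ. The 1248 therefore does not measure how stable the statements of rose and fell are. The number of genes called for siMITF without IFNγ, 0, became 1 (TRIM25) with pseudocounts of 0.1 or 0.5, quantile normalization, median centring or TPM rescaled without mitochondrial genes, 3 without a fold limit, and 0 to 1 with a library left out. For siMITF with IFNγ it became 2 without a fold limit. The count past the adjusted p alone there, 2, was 1 with a pseudocount of 0.1 (TRIM22 lost), 4 with quantile normalization or median centring and 4 with the replicate block (TRIM21 and TRIM25 added). The replicate block added TRIM25 to the interaction, making 1, and changed no other call beyond those given with the results. Over all tested gene IDs it moved the interaction calls from 121 to 276.

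The 15 changes of sign were of values near 0. With 1 library left out, siMITF without IFNγ gave −0.0637 to 0.0641 for TRIM38, −0.0402 to 0.0601 for TRIM5 and −0.2292 to 0.0165 for TRIM22, siMITF with IFNγ gave −0.0814 to 0.0319 for TRIM38, the combination −0.0172 to 0.3222 for TRIM25 and the interaction −0.101 to 0.0401 for TRIM38. The library whose loss turned the sign of TRIM22 was siCTRL replicate 2, and that of TRIM25 siMITF + IFNγ replicate 2. TRIM5 for siMITF without IFNγ was also at −0.0976 with quantile normalization and −0.0226 with median centring, and the TRIM38 interaction at 0.0283 with quantile normalization. The log2 fold change of TRIM22 by IFNγ ran from 5.33 to 7.12 in siCTRL and from 4.93 to 6.73 in siMITF cells over all settings, highest with a pseudocount of 0.1. In these data, 1 cell line, 1 siRNA, 1 time point and unknown read depth limit what the values of low genes such as TRIM14 can show, and no protein was measured here.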
